A study of Mus musculus with 2 samples.

Results

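The genes that encode the proteins of the cytosolic ribosome were followed across the cell types of mouse bone, with and without doxorubicin (Doxo), a chemotherapy drug that intercalates into DNA and poisons topoisomerase II. The members were the symbols of both expression matrices that begin with Rpl or Rps and a digit, the P-stalk genes Rplp0, Rplp1 and Rplp2, and Rpsa. Symbols that contain -ps (pseudogenes) and the Rps6k kinases were left out. This gave 85 genes of the 21905 listed, 51 named for the large and 34 for the small subunit. Rps19bp1, which encodes a protein that binds a ribosomal protein, also met the symbol rule. Single-cell RNA was measured with the 10x 3′ v3 kit in 2 libraries of bone resident cells, released from the long bones of the hind limb (femur and tibia) of female mice aged 12 weeks. The Veh library came from vehicle-treated mice, and the Doxo library from mice given 10 mg/kg of doxorubicin and killed at 96 h. The labels give no strain or genotype and no number of mice for these libraries. In both, CD45+, CD71+, Ter119+ and, per the labels, CD31+ cells had been depleted by magnetic and flow sorting. With 1 library per condition no difference has a replicate check. No test was run, and treatment and library cannot be told apart. Intervals are exact 95% intervals and cover counting error only.

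A ribosome holds 1 copy of nearly every ribosomal protein, and their genes are among the most highly and most evenly expressed in any cell. Large subunit proteins surround the site of peptide bond formation, small subunit proteins the site of mRNA decoding, and the P-stalk recruits the translation factors. Their mRNAs typically begin with a 5′ terminal oligopyrimidine (TOP) tract, a C followed by a run of C or T, through which mTORC1 and Larp1 control their translation together. Free Rpl5 and Rpl11 bind Mdm2 and so link ribosome assembly to p53, and Rps27l is a transcriptional target of p53. Doxorubicin is also known to inhibit synthesis of ribosomal RNA by RNA polymerase I.

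The counts were unique molecular identifiers (UMIs), each standing for 1 captured mRNA molecule. Each library held 2488 cells, with a median of 8693 UMIs per cell in Veh and 7347.5 in Doxo. A total of 4 cell barcodes occurred in both libraries. Cells were clustered without the members and classed by markers into CAR-like cells (CXCL12-abundant reticular cells, stromal cells of the marrow), 2 kinds of fibroblast-like cells, chondrocyte-like, osteoblast-like and endothelial-like cells. A cluster of 99 cells led by Tmem196 and Clic5 held too few markers and stayed unnamed. Endothelial-like cells, 102 in Veh and 69 in Doxo, were present in spite of the CD31 depletion in the labels, and 8 endothelial markers, Pecam1 (CD31) among them, marked the cluster. All classes came from the same 2 libraries, so agreement between classes is no replication. Most members were seen in almost every cell: 75 of the 85 had a UMI in over 90% of the cells of both libraries.

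The start of a ribosomal protein mRNA is shown first, since the TOP tract is the feature these genes are best known to share. A C within 5 bases of the start site that opened a run of at least 5 C or T was found in 30 of the 65 members with a RefSeq promoter (GRCm38.p6), a share of 46.2%, against 21.2% of all 27025 genes in that table. Annotated starts can lie some bases from the true start, so a missing match says only that these letters are not in this window. Each sequence below runs from 10 bases before the annotated start to 20 bases from it onwards, with the tract in capitals. The first 4 are members whose level stood out in Doxo (chosen after their values were seen), Rpl13 is an abundant member, and the others are the paralogs described further on and one counterpart. The windows are chr11:114668570-114668599 (+ strand) for Rpl38, chr3:90213629-90213658 (- strand) for Rps27, chrX:37085203-37085232 (- strand) for Rpl39, chr17:33824543-33824572 (- strand) for Rps28, chr8:123102340-123102369 (+ strand) for Rpl13, chr9:66946076-66946105 (+ strand) for Rps27l, chr3:28805498-28805527 (+ strand) for Rpl22l1, chr4:152325716-152325745 (+ strand) for Rpl22, chr16:10170218-10170247 (+ strand) for Rpl39l, chr12:69184048-69184077 (- strand) for Rpl36al and chr17:46782637-46782666 (- strand) for Rpl7l1.
Rpl38: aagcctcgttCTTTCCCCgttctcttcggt
Rps27: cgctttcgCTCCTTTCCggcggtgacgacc
Rpl39: gctccgCCTCTagcgacttcttctaatcgc
Rps28: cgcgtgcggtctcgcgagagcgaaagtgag
Rpl13: tttcgcctgattttgattggcgtttgagat
Rps27l: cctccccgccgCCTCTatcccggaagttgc
Rpl22l1: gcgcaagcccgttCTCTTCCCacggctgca
Rpl22: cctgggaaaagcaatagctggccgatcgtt
Rpl39l: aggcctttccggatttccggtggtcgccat
Rpl36al: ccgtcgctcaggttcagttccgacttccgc
Rpl7l1: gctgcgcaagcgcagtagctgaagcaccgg
Rpl38, Rps27 and Rpl22l1 held tracts of 8, 9 and 8 bases. The matches of Rpl39 and Rps27l were only 5 bases long, and none was found for Rps28, Rpl13, Rpl22, Rpl39l, Rpl36al and Rpl7l1. Rps27rt, which also stood out in Doxo, held a tract and is not printed.

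The members took up a larger part of all UMIs in Doxo than in Veh in 6 of the 7 classes, and a smaller part in endothelial-like cells. In CAR-like cells the share was 7.43% in Veh (interval 7.40 to 7.46, 365 cells) and 8.58% in Doxo (8.55 to 8.61, 419 cells), a log2 ratio of Doxo to Veh of 0.21. Bone and cartilage fibroblast-like cells, the largest class, went from 12.1% (1085 cells) to 14.1% (1348 cells), a log2 ratio of 0.22. This was the largest ratio of the 7. Arteriolar and endosteal fibroblast-like cells held 12.8% in Veh (436 cells) and 14.4% in Doxo (259 cells), a log2 ratio of 0.17. Chondrocyte-like cells had the highest shares, 15.8% (251 cells) and 17.1% (212 cells), a log2 ratio of 0.11. In osteoblast-like cells the shares were 9.11% (205 cells) and 9.98% (126 cells), a log2 ratio of 0.13. Endothelial-like cells held 13.9% in Veh and 13.5% in Doxo (log2 ratio -0.046, interval -0.06 to -0.03). The unnamed cluster held 8.78% (44 cells) and 9.50% (55 cells). CAR-like cells were lowest and chondrocyte-like cells highest in both libraries. Endothelial-like cells were second highest in Veh and stood below both fibroblast-like classes in Doxo, and the order of the other classes was the same. The chondrocyte-like and CAR-like shares lay further apart than the shares of the libraries within any class.

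**Figure D1:**
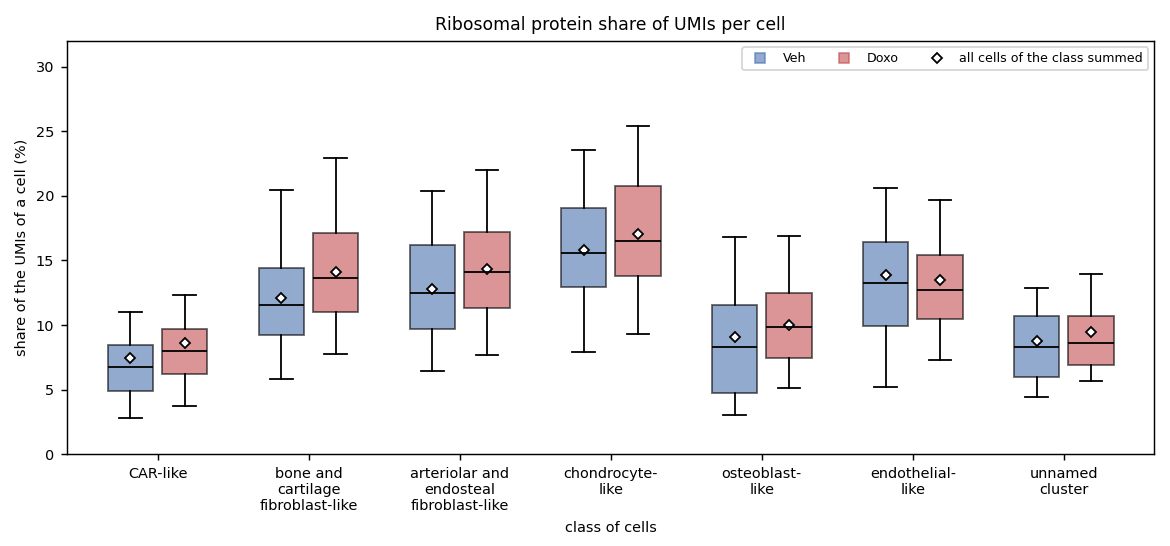
Share of the UMIs of each cell that came from the 85 ribosomal protein genes (%, y axis) by class (x axis) in the Veh and Doxo libraries; boxes span the quartiles of cells with the median as a line, whiskers the 5th to 95th percentiles, and diamonds give the share over the summed cells. CAR-like cells were lowest and chondrocyte-like cells highest in both libraries, and the boxes of Veh and Doxo overlapped in every class.

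Cells of a class spread more widely than the libraries differed. The quartiles of the CAR-like cells were 4.90% and 8.48% in Veh and 6.24% and 9.67% in Doxo, and the quartile ranges overlapped in all 7 classes. CAR-like cells held 3 populations. The largest, with 272 and 399 cells, had shares of 7.29% and 8.45%, and the second, with 83 cells in Veh and 3 in Doxo, 7.02% and 6.86%. The smallest (10 and 17 cells) had the highest shares, 10.7% and 10.0%. Against the other CAR-like cells, 7 markers of bone and cartilage fibroblasts marked this population. Its medians were 14444 and 18104 UMIs per cell, against 6231 and 7263 in all CAR-like cells. Whether it consists of CAR-like cells was not tested. When every cell was reduced at random to 2000 UMIs, the shares in CAR-like cells were 6.88% and 8.17%, and the endothelial-like shares 13.7% and 13.6%. The osteoblast-like difference depended on the cells and on the denominator. It turned to a log2 ratio of -0.046 under a stricter filter (1000 or more genes and no more than 5% of UMIs mitochondrial), which left 76 and 37 of these cells, and was 0.01 without the UMIs of Gm42418 and AY036118.

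Other measures moved with the library as well. Gm42418 and AY036118 lie over an annotated ribosomal RNA gene on chromosome 17 (chr17:39846958-39848788 and chr17:39847113-39848035, GRCm38), and their UMIs stood lower in Doxo in every class: 9.76% against 1.84% in osteoblast-like cells, 1.64% against 0.720% in CAR-like cells. Mitochondrial UMIs were higher in Doxo in every class, 4.10% against 2.92% in CAR-like cells. In counts per 1000000 UMIs (CPM), the summed level of 7 erythroid markers ranged from 118 to 689 CPM over the classes in Veh. In Doxo it was at most 14.3, and all 7 were at 0 in osteoblast-like cells, where 3 UMIs would be 5.91 CPM. The 7 immune markers summed to 1206 and 1022 CPM in the CAR-like and the bone and cartilage fibroblast-like cells of Veh, against 94.3 and 92.4 in Doxo, and to 38.8 to 136 in the other classes of both libraries. Markers of dissociation stress were lower in Doxo in CAR-like and osteoblast-like cells and higher in the other 5 classes, most so in chondrocyte-like cells (15801 against 30564 CPM). The part of these in the share was not tested, apart from the denominators named. In summed cells, a larger share can also not be told apart from less RNA of other genes.

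Most members shared this small difference. Each gene with at least 100 UMIs in a class was given a log2 ratio of its CPM, Doxo to Veh. The median over the members was 0.15 in CAR-like cells, 0.14 in bone and cartilage fibroblast-like, 0.10 in arteriolar and endosteal fibroblast-like, 0.03 in chondrocyte-like, 0.08 in osteoblast-like, -0.09 in endothelial-like and 0.06 in unnamed cells. The medians over all genes were, in that order, 0.04, -0.08, -0.01, 0.04, 0.02, -0.04 and 0.00. Members stood above 0 in 72 of 84 cases in CAR-like cells (background 54.8% of all genes), 79 of 84 in bone and cartilage fibroblast-like cells (37.7%) and 69 of 83 in arteriolar and endosteal fibroblast-like cells (48.8%). The counts were 50 of 84 in chondrocyte-like cells (54.4%), 56 of 80 in osteoblast-like cells (52%), 23 of 80 in endothelial-like cells (45.7%) and 56 of 80 in the unnamed cluster (50.1%). The members were thus further to the Doxo side than all genes in the CAR-like, both fibroblast-like, the osteoblast-like and the unnamed cells, close to them in chondrocyte-like cells, and further to the Veh side in endothelial-like cells. Members have narrow counting intervals and code for parts of 1 particle, so they are no independent cases.

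A few members left this common trend, all of them towards Doxo. A member was said to leave it where its log2 ratio lay at least 0.5 from the median of the members. This held for 8 members in CAR-like cells (9.52% of those tested, background 9.54% of all genes above their own median), 6 in bone and cartilage fibroblast-like (7.14%, background 4.28%), 5 in arteriolar and endosteal fibroblast-like (6.02%, background 5.68%) and 6 in chondrocyte-like cells (7.14%, background 10.8%). There were 3 in osteoblast-like (3.75%, background 11.8%), 4 in endothelial-like (5%, background 10.2%) and 6 in unnamed cells (7.5%, background 8.75%). No member lay as far below the median in any class. The counts themselves were near or below the background in most classes and are no result about the members. In at least 2 of the 6 named classes it was 6 members of 84 (7.14%), against a background of 4.66% of 8153 genes. These 6 were Rpl38, Rps27, Rps29, Rps27rt, Rpl39 and Rps28.

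Rpl38, a large subunit protein known for its part in the translation of Hox mRNAs (ENSMUSG00000057322, chr11:114668524-114672331), left the trend in all 6 named classes. Its level in CAR-like cells was 641 CPM in Veh and 1059 in Doxo (log2 ratio 0.72, interval 0.64 to 0.81). Bone and cartilage fibroblast-like cells had 1048 and 1809 CPM, and in endothelial-like cells, where most members were lower in Doxo, 1145 and 1674. Its ratio was lowest in endothelial-like cells, at 0.55, and highest in the unnamed cluster, at 0.90. Doxo was the higher library for Rpl38 in every class, and no counting interval reached 0.

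Rps27, a zinc finger protein of the small subunit (ENSMUSG00000090733, chr3:90212522-90213651), had the widest distance among the abundant members. In chondrocyte-like cells its sum was 9209 UMIs in Veh and 11873 in Doxo (log2 ratio 0.98, interval 0.94 to 1.02) although the class as a whole had fewer UMIs in Doxo. In CAR-like cells the ratio was 0.75 and in osteoblast-like cells 0.54, there 0.46 from the median and so inside the limit. Rps27rt (ENSMUSG00000050621, chr9:114982366-114982739) is a retrotransposed copy of Rps27, and 91.1% of the 50-base words of its transcript occur in other annotated genes. It had 74 and 179 UMIs in CAR-like cells and ratios of 0.89 to 1.31 in the 4 named classes where it could be measured. Reads of this pair can be split between them, so both values are uncertain as values of 1 gene.

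Rps29, another small zinc finger protein of the small subunit (ENSMUSG00000034892, chr12:69157722-69159186), stood at 1277 CPM in Veh and 2124 in Doxo in CAR-like cells, and at 2726 and 4612 in chondrocyte-like cells. Its log2 ratios ranged from 0.48 in endothelial-like to 0.79, the latter among bone and cartilage fibroblast-like cells. Rpl39, a short peptide that lines the exit tunnel of the large subunit (ENSMUSG00000079641, chrX:37082520-37085402), had its widest ratio in CAR-like cells, 0.84 (0.78 to 0.91), with 1019 and 1828 CPM. Rps28 (ENSMUSG00000067288, chr17:33819027-33824562), a small subunit protein near the mRNA exit, ranged from 0.48 in osteoblast-like to 0.67, again highest among bone and cartilage fibroblast-like cells. All 3 were higher in Doxo in every class.

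**Figure D2:**
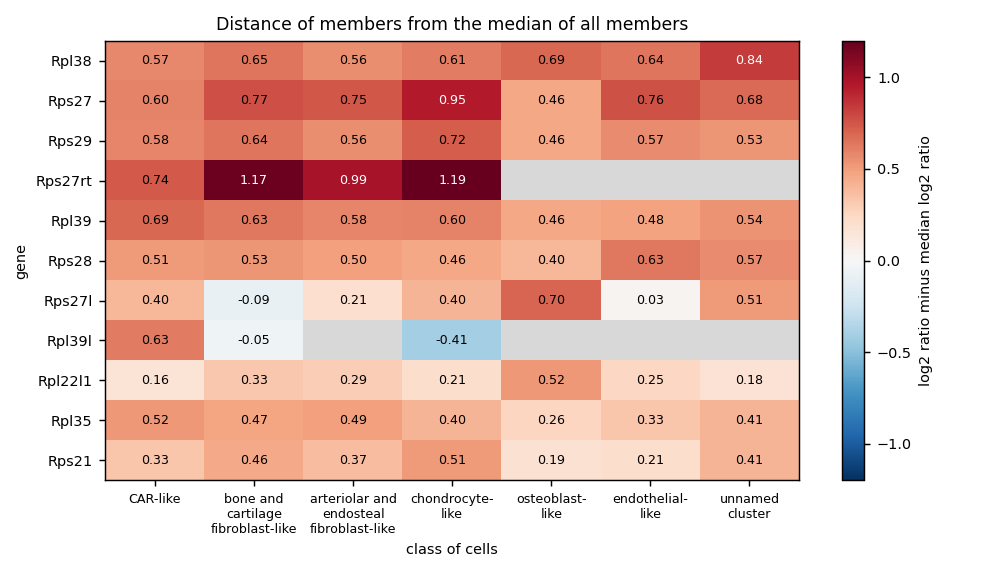
Distance of the log2 ratio (Doxo to Veh) of each of 11 genes (y axis) from the median log2 ratio of the members (colour and printed value) in each class (x axis); genes that passed the 0.5 limit in at least 1 named class are shown, and grey marks fewer than 100 UMIs. Rpl38, Rps27, Rps29, Rpl39 and Rps28 lay above the median in every class, while Rps27l and Rpl39l differed between classes in sign.

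A further 5 members passed the limit in 1 named class only. Rps27l did so in osteoblast-like, Rpl39l in CAR-like, Rpl22l1 in osteoblast-like, Rpl35 in CAR-like and Rps21 in chondrocyte-like cells. At the edge of the limit, Rps21 lay 0.51 above the median in chondrocyte-like cells, and Rpl37a reached 0.49 at most. Among the members on the other side, Rpl15 had the lowest ratio in CAR-like cells, -0.18 (-0.27 to -0.10), and Rplp0 in endothelial-like cells, -0.48.

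What the 6 genes shared beyond the rule was a short coding sequence, a feature noticed after their values were seen. Their coding lengths were 153 bases (Rpl39), 168 (Rps29), 207 (Rps28), 210 (Rpl38) and 252 (Rps27 and Rps27rt). Only 12 members had fewer than 300 coding bases, and the other 6 were Rpl41, Rps21, Rpl37, Rpl37a, Rps27l and Rpl39l. The median log2 ratio of these short members was 0.69 in CAR-like cells (all 12 above 0), 0.64 in bone and cartilage fibroblast-like, 0.59 in arteriolar and endosteal fibroblast-like, 0.52 in chondrocyte-like, 0.51 in osteoblast-like, 0.34 in endothelial-like and 0.58 in unnamed cells. Members of 300 to 449 coding bases had medians of 0.17, 0.16, 0.10, 0.07, 0.06, -0.06 and 0.09 in the same order. Other genes with fewer than 300 coding bases had medians of 0.17 (191 genes), -0.04, 0.00, 0.09, 0.16, 0.08 and 0.05. By their medians the short members stood above both the longer members and the other short genes in all 7 classes. By whole transcript the gap was smaller in these classes: in CAR-like cells the median was 0.36 for members under 500 bases and 0.32 for other genes of that length (44 genes). In bone and cartilage fibroblast-like cells these medians were 0.44 and 0.04, and in endothelial-like cells the other genes were above the members, at 0.34 against 0.08. Across members, Spearman's rho of coding length with the log2 ratio was -0.60 in CAR-like, -0.43 in bone and cartilage fibroblast-like, -0.54 in arteriolar and endosteal fibroblast-like, -0.56 in chondrocyte-like, -0.29 in osteoblast-like, -0.55 in endothelial-like and -0.47 in unnamed cells (80 to 84 genes that share the same libraries). Across the other genes it was -0.19 in CAR-like cells, 0.00 in bone and cartilage fibroblast-like cells and -0.39 in osteoblast-like cells.

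**Figure D3:**
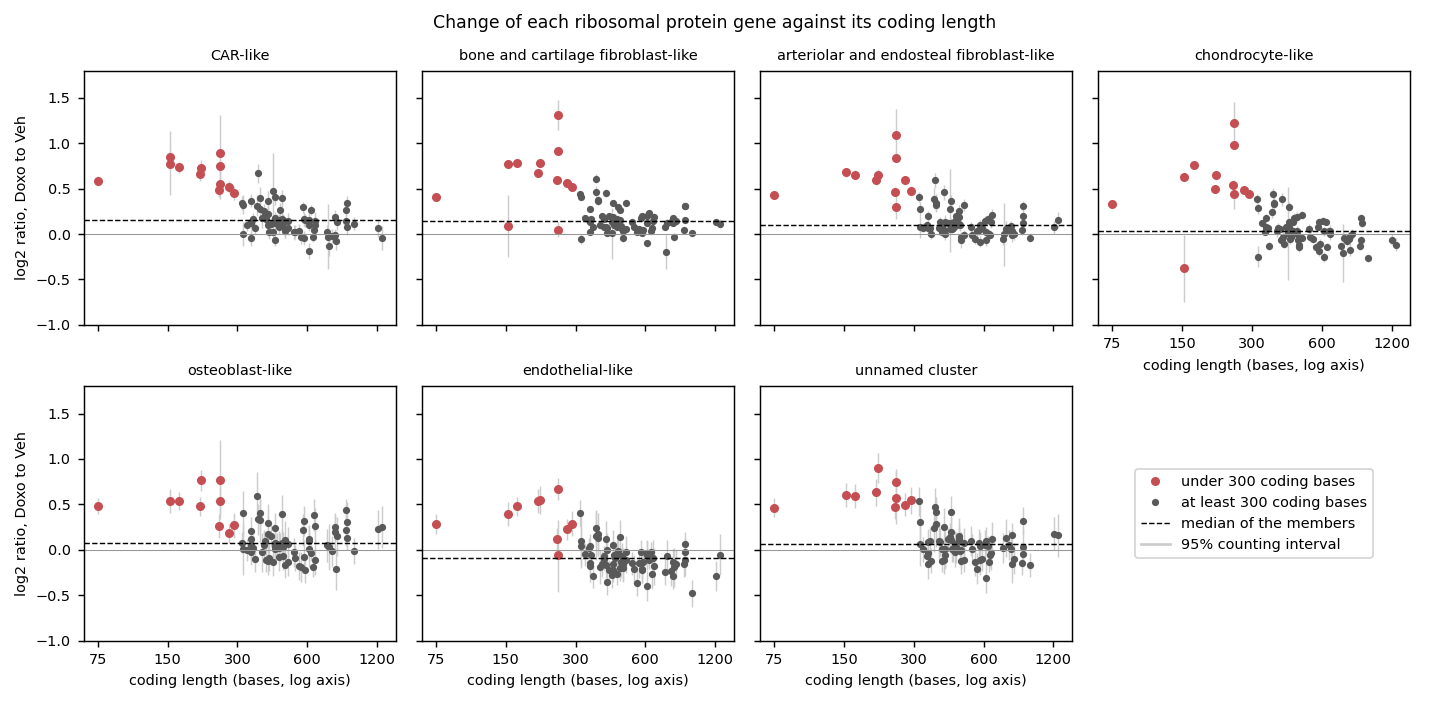
Log2 ratio of Doxo to Veh (y axis) of each member with at least 100 UMIs in the class against its coding length in bases (x axis, log scale), one panel per class; vertical lines are 95% counting intervals and the dashed line is the median of the members. Members under 300 coding bases (red) lie above the dashed line except Rps27l and Rpl39l in bone and cartilage fibroblast-like cells and Rpl39l in chondrocyte-like cells.

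Put as a share, the 12 short members gave 12.5% of the members' UMIs in CAR-like cells in Veh (12.3 to 12.6) and 16.8% in Doxo (16.7 to 17.0). The shares were 12.5% and 16.8% in bone and cartilage fibroblast-like, 12.6% and 16.8% in arteriolar and endosteal fibroblast-like, 13.0% and 18.1% in chondrocyte-like, 13.1% and 17.6% in endothelial-like, and 13.0% and 17.9% in unnamed cells. Osteoblast-like cells stood apart in both libraries, at 17.1% and 21.5%. The quartile ranges of cells for this measure did not overlap in 6 of the 7 classes, while those for the total share overlapped in all 7. The short set was defined after the members that left the trend between these same libraries had been seen, and it holds them. Some separation is thus built in, and it cannot be set against that of the total share. Cells of a library are also no replicates. The share of the short members hardly differed between the classes other than osteoblast-like. Without the short members, the ratio of the share left was 0.13 in CAR-like and 0.15 in bone and cartilage fibroblast-like cells, and 0.02 in chondrocyte-like and -0.12 in endothelial-like cells. The difference in the short members was thus present in the class whose total went the other way. Whether transcript length, capture or mapping had a part in it was not tested.

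**Figure D4:**
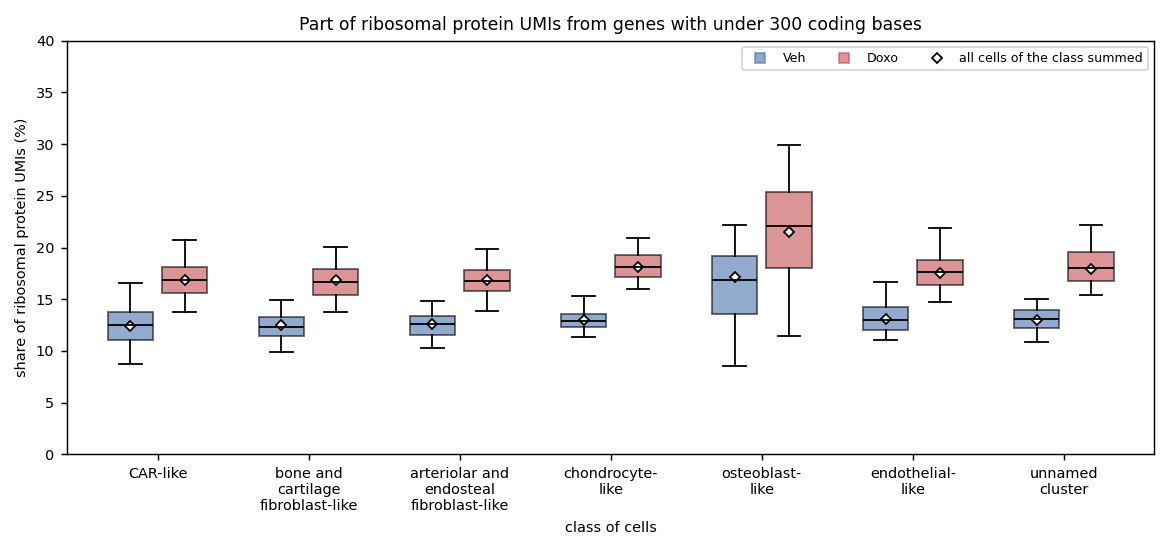
Percentage of a cell's ribosomal protein UMIs that came from the 12 members with under 300 coding bases (y axis) by class (x axis) in the Veh and Doxo libraries; boxes are quartiles of cells, whiskers the 5th to 95th percentiles, diamonds the summed cells. Doxo boxes lie wholly above Veh boxes in every class except osteoblast-like cells.

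Ribosomal protein genes have many near-identical copies, and the copies were also measured. The median member shared 52.3% of the 50-base words of its transcript with transcripts of other annotated genes. The share was 37.1% for the short members and 55.5% for the others, and its rho with the log2 ratio lay between -0.13 and 0.06 over the classes. Yet 2 listed pseudogene copies stood well above their parents. Rpl9-ps6 had 40 and 115 UMIs in CAR-like cells, a log2 ratio of 1.13 (0.61 to 1.70), where Rpl9 was at 0.29. Rpl10-ps3 had 33 and 125, a ratio of 1.53 (0.98 to 2.14), where Rpl10 was at 0.05. In bone and cartilage fibroblast-like cells these copies were at 1.09 and 0.99, but Rpl36a-ps1 was at 0.03 (-0.41 to 0.47) beside 0.41 for Rpl36a. Outside the symbol rule, the ribosomal protein genes Fau and Rack1 followed the common trend in CAR-like cells, at 0.06 and -0.03. How reads of copies were assigned was not tested.

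Of the members with the most UMIs over both libraries, Rplp1 and Rpl13 kept close to the median, while Rps29, higher than both in CAR-like cells of Doxo, left the trend. In CAR-like cells Rplp1 stood at 1822 and 1997 CPM (log2 ratio 0.13) and Rpl13 at 1987 and 1942 (-0.03). Within the P-stalk the 3 proteins differed: in CAR-like cells Rplp2 was at 0.37 (0.29 to 0.44), Rplp1 at 0.13 and Rplp0 at 0.11, and in chondrocyte-like cells at 0.17, 0.02 and -0.27. Rplp0, the long scaffold of the stalk, was the lowest of the 3 in all 7 classes. Rpsa, a small subunit protein also known as the laminin receptor, ranged from -0.06 in chondrocyte-like to 0.43 (0.31 to 0.56) in osteoblast-like cells. The Mdm2-binding members did not stand out: Rpl5 ranged from -0.12 in endothelial-like to 0.31 among bone and cartilage fibroblast-like and osteoblast-like cells, and Rpl11 from -0.22 to 0.07.

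The paralogs, duplicated genes whose products can take the place of a ribosomal protein, are given class by class. Rps27l was higher in Doxo in CAR-like cells, with 201 and 293 CPM and a log2 ratio of 0.55 (0.39 to 0.71), and in chondrocyte-like cells, with 146 and 197 (0.44). In osteoblast-like cells it had the highest ratio of any member, 0.77 (0.34 to 1.21), from 85 and 95 UMIs. In the unnamed cluster it was at 0.57, and in arteriolar and endosteal fibroblast-like cells at 0.30. In bone and cartilage fibroblast-like cells it was at 0.05 (-0.03 to 0.13) and in endothelial-like cells at -0.06 (-0.47 to 0.33), so no difference was detectable there at this depth. Rps27l thus lay below its short fellows in the largest class: its part of the UMIs of the pair with Rps27 was 12.8% in Veh and 7.45% in Doxo there, and 18.7% and 16.7% in CAR-like cells.

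Rpl22l1, the paralog whose splicing and level Rpl22 controls, was higher in Doxo in all 7 classes. It ranged from 0.16 (-0.12 to 0.42) in endothelial-like cells to 0.60 (0.33 to 0.86) in osteoblast-like cells, and its interval reached 0 in the endothelial-like and unnamed cells. Its part of the pair with Rpl22 went from 29.7% (29.0 to 30.5) to 35.4% (34.7 to 36.2) among bone and cartilage fibroblast-like cells, from 42.7% to 46.3% in chondrocyte-like and from 34.8% to 45.1% in osteoblast-like cells. In CAR-like cells it was 46.2% (44.1 to 48.3) and 48.6% (46.9 to 50.3), with overlapping intervals. Rpl22 itself was at 0.17 in CAR-like and 0.09 in bone and cartilage fibroblast-like cells.

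Rpl39l, best known from testis, was sparse, with 1006 UMIs in all. In CAR-like cells it was at 39.2 CPM in Veh and 67.3 in Doxo (log2 ratio 0.78, interval 0.43 to 1.14), but in chondrocyte-like cells at -0.37 (-0.75 to -0.01), from 185 and 93 UMIs. The signs of these classes were opposite, and the difference was not tested. Rpl36al, the paralog of Rpl36a, was at 0.00 in CAR-like cells and at -0.25 in chondrocyte-like cells. Its part of the pair went from 37.3% to 30.2% among bone and cartilage fibroblast-like cells, where Rpl36a was at 0.41. Rpl7l1, a nucleolar relative of Rpl7, ranged from -0.20 to 0.00 in the 4 classes where it had 100 UMIs. Its part of the pair was 3.54% and 2.82% in bone and cartilage fibroblast-like cells. Rpl3l, the striated muscle form of Rpl3, had 9 UMIs in both libraries together. Rpl10l and Rps4l were not analysed here.

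**Figure D5:**
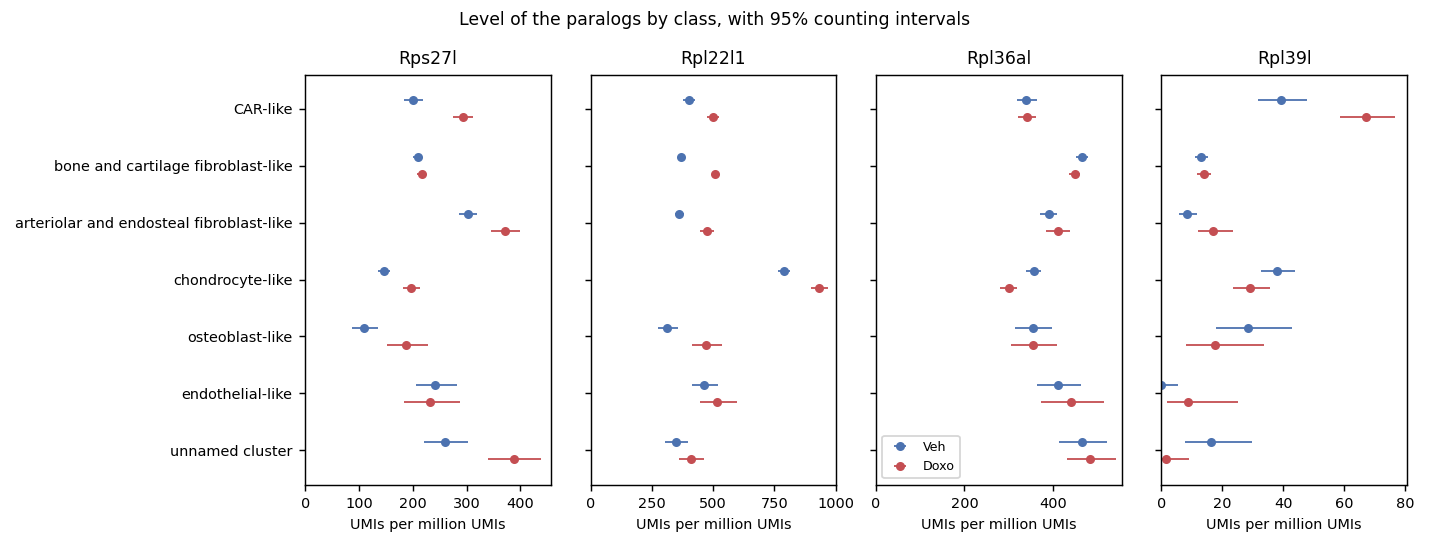
Level of 4 paralogs in CPM (x axis) by class (y axis) in the Veh and Doxo libraries, with exact 95% Poisson intervals as bars. Rpl39l was highest in CAR-like cells of Doxo, Rpl22l1 in chondrocyte-like cells of both libraries, and Rpl36al differed little between the libraries outside chondrocyte-like cells.

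Levels of single members also marked the classes, in the same way in both libraries. Each member's level in a class was set against all other cells of the same library, as a description, since the cells were classed on expression, though not on these genes. Genes and classes were ordered by the weaker of the 2 libraries. Rpl39l in CAR-like cells stood furthest above, with log2 ratios of 1.14 in Veh and 2.02 in Doxo. It was followed by members in chondrocyte-like cells: Rpl22l1 at 1.09 and 0.91, Rplp1 at 0.85 and 0.78, Rps29 at 0.66 and 0.72, and Rpl36a at 0.71 and 0.66. By the same order, furthest below were Rps4x in osteoblast-like cells at -1.47 and -1.27, and Rpl23 in CAR-like cells at -1.23 and -1.24. Rpl5 (-1.34 and -1.19), Rps6 (-1.21 and -1.19) and Rpl9 (-1.26 and -1.15) followed, all in osteoblast-like cells. The median member was at -0.77 and -0.70 in CAR-like, -0.54 and -0.54 in osteoblast-like and 0.43 and 0.37 in chondrocyte-like cells. Pearson's r between the libraries over the members was 0.87 to 0.97 by class (80 to 84 genes). Osteoblast-like cells, the shallowest class with medians of 3065 and 2940 UMIs per cell, held more Rpl38 and Rpl36 than other cells although the median member was lower there: Rpl38 stood at 0.48 and 0.57, and Rpl36 at 0.74 and 0.47.

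The balance of the subunits hardly differed between libraries. Large subunit members gave 1.30 times the UMIs of small subunit members in Veh and 1.27 times in Doxo, over all cells. By class the log2 change of this ratio lay between -0.05 (chondrocyte-like) and -0.01, and the ratio itself was highest in osteoblast-like cells, 1.40 and 1.39.

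The other genes of the pathway had medians below that of the members in CAR-like cells, apart from the mitochondrial set. Of all genes, 54.8% stood above 0 in CAR-like, 37.7% in bone and cartilage fibroblast-like and 48.8% in arteriolar and endosteal fibroblast-like cells. Of 21 other TOP genes, 9 were above 0 in CAR-like cells, with a median of -0.04 beside 0.15 for the members. Npm1, a nucleolar chaperone of ribosome assembly, was lowest at -0.59 (-0.72 to -0.46), followed by Hnrnpa1 at -0.35 and the snoRNA host Snhg12 at -0.31. Snhg8 (0.28), Btf3 (0.16) and Eif3f (0.15) were highest. In the bone and cartilage fibroblast-like cells 18 of the 21 were above 0 (median 0.07), and in arteriolar and endosteal fibroblast-like cells 19 (median 0.13). Ribosome biogenesis and RNA polymerase I genes stood lower in Doxo in 25 of the 32 measured in CAR-like cells (median -0.16): the nucleolar helicase Ddx21 was at -1.10, the nucleostemin gene Gnl3 at -1.01 and nucleolin (Ncl) at -0.81, while the highest, Nhp2, Ltv1 and Sdad1, were at 0.24, 0.23 and 0.21 with intervals that reached 0. Their median was -0.14 in bone and cartilage fibroblast-like, -0.02 in arteriolar and endosteal fibroblast-like and -0.39 in chondrocyte-like cells. For initiation factors the CAR-like median was -0.08 (10 of 29 above 0). There the cap-binding Eif4e (-0.65), Eif5 (-0.60) and Eif3a (-0.56) were lowest, and Eif2b1 (0.57), Eif3j1 (0.41) and Eif2b2 (0.32) highest. Some of these rested on the CAR-like population with 83 cells in Veh and 3 in Doxo. In the largest population alone Ddx21 was at -0.61, Gnl3 at -0.40 and Ncl at -0.60, and Eif4e was on the other side, at 0.12 (-0.25 to 0.50).

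Among 12 measured regulators of TOP translation and of ribosomal gene transcription, Myc, which drives ribosomal genes, was lowest in CAR-like cells: 835 UMIs in Veh and 195 in Doxo (log2 ratio -2.47, interval -2.71 to -2.25). Larp4 was at -1.02 and the mTORC1 subunit Rptor at -0.35 with an interval that reached 0. The S6 kinase gene Rps6kb2 (1.12), the mTORC1 target Eif4ebp1 (0.52) and Tsc2 (0.20) were highest. The value of Myc did not hold without the CAR-like population nearly absent from Doxo, of which it was among the leading genes. In the largest CAR-like population alone Myc had 72 and 148 UMIs, a log2 ratio of 0.17 with an interval from -0.25 to 0.60, while Larp4 was at -0.77 and Eif4ebp1 at 0.33. Rps6kb2 had 19 and 74 UMIs there, under the minimum of 100. The median over all genes of that population was -0.03, and 46.7% of them stood above 0. Beside this, the regulators had a median of -0.02 (4 of 9 above 0), the biogenesis genes -0.11 (7 of 26), the other TOP genes -0.02 (10 of 21), the initiation factors -0.10 (11 of 27) and the cytosolic members 0.15 (70 of 84). Mitochondrial ribosomal protein genes are a separate set that serves the ribosome of the mitochondrion. Of the 74 measured in CAR-like cells, 64 were above 0 (background 54.8% of all genes). Their median was 0.28, from -0.40 for Mrpl24 to 0.94 for Mrpl10. Mrpl45 (-0.15) and Mrpl19 (-0.14) were the next lowest, and Mrps35 (0.92) and Mrpl49 (0.83) the next highest. In the largest CAR-like population alone, 40 of 67 mitochondrial genes were above 0, with a median of 0.06. In bone and cartilage fibroblast-like cells only 12 of 77 were above 0 (background 37.7% of all genes). Their median was -0.14, where the cytosolic members had a median of 0.14. The nuclear RNAs Neat1 (-0.38) and Malat1 (-0.22) were lower and Xist (0.28) higher in CAR-like cells of Doxo, but in the largest population alone Neat1 was at 0.51 (0.40 to 0.63), Malat1 at -0.28 and Xist at 0.22. Of 15 dissociation genes 14 were below 0 in CAR-like cells (median -0.55), against 10 in the largest population alone (median -0.13). All 15 were above 0 in chondrocyte-like cells (median 1.13), where 54.4% of all genes were above 0.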

How the data were processed

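Deposited values were log2 values per gene and cell. Per the labels and the study's methods the authors ran Cell Ranger on GRCm38 (mm10), with Partek also named; versions and the annotation are not given in the sources used here. Each cell's values inverted to whole UMIs (within 0.05 for over 99.9% of values up to 50 UMIs; 20 symbols did not and hold no member). Totals were 24859717 UMIs in Veh and 20792042 in Doxo. Cells were filtered as the study describes (200 to 10000 genes, 100 to 100000 counts, at most 10% mitochondrial, genes in at least 3 cells), which kept all 4976. They were clustered with Seurat 5.3.0 in R 4.3.3 (35 components, resolution 0.1, members removed from the 2000 variable genes), endothelial-like cells set aside and the rest clustered again. A cluster was named from at least 3 listed markers. No doublet caller was run. Counts were summed per class and library, and ratios had 0.5 UMI added to each sum. Intervals are exact binomial, Poisson and conditional binomial ones (scipy 1.17.1). Of these, the conditional binomial ones of the log2 ratios were tested on data simulated from CAR-like sums. UMIs of 1 library share its preparation, so all these intervals cover counting error only. Gene IDs, places and lengths come from GENCODE M21. Named members left the trend in at least 2 named classes, were farthest in a class, are paralogs with their counterparts, or are Rpl5, Rpl11, Rpsa, the P-stalk and those with most UMIs; of other lists the 3 highest and lowest in CAR-like cells were named. Members and lists were chosen with earlier results of these data known. Some items are not reported here. Settings tried are given with the closing limits.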

Additional observations from a re-analysis of the deposited data

Results flagged for a closer look

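The ribosomal protein share of UMIs was lower in Doxo in endothelial-like cells, with a log2 ratio of Doxo to Veh of -0.046, and higher in each of the other classes. It drew attention because this class moved opposite to the others under the same contrast. With 1 library per condition the difference between the classes was not tested.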

How the results depend on the processing

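No paired analysis was possible because there was 1 library per condition, and for the same reason no library could be left out. The log2 ratios of the share, Doxo to Veh, are given in the order CAR-like, bone and cartilage fibroblast-like, arteriolar and endosteal fibroblast-like, chondrocyte-like, osteoblast-like, endothelial-like and unnamed. With members kept among the variable genes they were 0.22, 0.22, 0.18, 0.12, 0.16, -0.035 and 0.11. With 20 components they were 0.22, 0.21, 0.12, 0.12, 0.14 and -0.015, with no unnamed class. Under the stricter filter on cells they were 0.22, 0.22, 0.17, 0.12, -0.046, -0.032 and 0.0598. Without the 5% of cells with most UMIs they were 0.19, 0.21, 0.17, 0.16, 0.14, -0.062 and 0.13. With cells weighted equally they were 0.25, 0.24, 0.15, 0.11, 0.24, -0.0198 and 0.17. With cells reduced to 2000 UMIs they were 0.25, 0.24, 0.14, 0.14, 0.15, -0.0038 and 0.17. In cells of 5000 to 10000 UMIs (20 and 31 chondrocyte-like cells) they were 0.19, 0.18, 0.087, 0.36, 0.22, -0.10 and 0.0600. Without mitochondrial UMIs in the denominator they were 0.23, 0.23, 0.18, 0.12, 0.15, -0.04 and 0.12. Without these and the 50 most abundant other genes they were 0.20, 0.23, 0.15, 0.083, 0.11, -0.066 and 0.088. With cells classed by markers alone they were 0.16, 0.25, 0.097, 0.057, 0.22 and -0.0093, with no unnamed class. Without the ribosomal RNA locus they were 0.19, 0.21, 0.16, 0.11, 0.0097, -0.06 and 0.10. For members of 300 or more coding bases only they were 0.13, 0.15, 0.096, 0.024, 0.054, -0.12 and 0.029. The last 2 settings were chosen after seeing the data. The osteoblast-like ratio turned below 0 under the stricter filter, and the cause was not tested. No other ratio of the share changed its sign. Members that left the trend numbered 6, 18 at a distance of 0.3 and 1 at a distance of 1 (Rps27rt). Of members with 300 or more coding bases it was 1 (Rpl35), since all 6 are shorter. Elsewhere it was 5 to 7: Rps27rt dropped out with cells reduced to 2000 UMIs and with at least 1000 UMIs per gene, and the other 5 kept the limit. Of 1743 values of named members under these settings 197 moved beyond their counting interval and 0 of those at least 0.5 from 0, with an interval that excluded 0, turned in sign. Smaller values were not counted for a turn. Depth limits Rps27rt, Rpl39l and Rps27l most, and the osteoblast-like, endothelial-like and unnamed classes.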
